A study of Mus musculus with 16 samples.

Results

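The genes described here make, receive and end the nitric oxide and cyclic GMP signal in the aortic wall. They are Nos1, Nos2, Nos3, Ddah1, Ddah2, Gucy1a3, Gucy1b3, Gucy1a2, Prkg1 and Pde5a, and every probe that carries one of these names in the raw array files was taken. Of the 10 genes, 9 had a probe under that name, with 18 probes in all among the 41174 probes and 28095 gene names of the array. Gucy1a2 had none under that name and is not described. The 4 groups, with 4 samples each, were MPA (medroxyprogesterone acetate) with its placebo group, named M placebo, and NET-A (norethisterone acetate) with its placebo group, named N placebo. All 16 samples were aortas of female C57BL/6 mice that were ApoE-deficient, and so prone to atherosclerosis. All had been ovariectomized at 4 to 5 weeks of age and ate a high-fat Western-type diet, so that the placebo groups carry the gene defect, the loss of the ovaries and the diet too. A pellet made to release for 90 days was placed 2 weeks after the operation, and the aorta was taken after 78 to 90 days. Pellet doses are not in the labels. The labels also do not say whether the samples came from separate animals, so p-values rest on sample-to-sample spread, which may be technical.

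Nitric oxide synthases make nitric oxide from arginine: Nos3 is the endothelial enzyme, Nos1 the neuronal one and Nos2 the one that inflammation induces. Ddah1 and Ddah2 belong to the dimethylarginine dimethylaminohydrolases, the family that degrades methylated arginines, which inhibit the synthases. Nitric oxide crosses to smooth muscle cells and platelets and binds the heme of soluble guanylate cyclase, a dimer of an alpha subunit, encoded by Gucy1a3 (now Gucy1a1), and a beta subunit, encoded by Gucy1b3 (now Gucy1b1). The cyclic GMP it makes activates the kinase encoded by Prkg1, which relaxes smooth muscle, and is broken down by the phosphodiesterase Pde5a.

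With MPA, the clearest difference within the pathway lay at Gucy1a3. A pair of neighbouring probes gave log2 levels 1.35 ± 0.17 and 0.95 ± 0.18 above M placebo (± standard error, 4 arrays per group), with all MPA arrays above all M placebo arrays, while a probe further along the same transcript gave -0.27 ± 0.35. With NET-A the same pair of probes differed from N placebo by 0.02 ± 0.23 and -0.06 ± 0.24. In NET-A aortas the 3 probes of Gucy1b3 gave 0.28 to 0.43 above N placebo, and the 2 probes of Ddah1 gave -0.58 and -0.81. No probe of the pathway, and none of all probes tested, passed an adjusted p of 0.05 (limma with Benjamini-Hochberg adjustment) in either comparison or in the test of the difference between the responses.

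Each sample was read on a one-colour Agilent array. A log2 level here is the log2 of a probe's background-subtracted intensity minus the array's 75th percentile, and a change is the difference of 2 group means of log2 levels. The share of spots well above background was 46.3% to 60.6% per array with MPA and M placebo and 62.3% to 78.5% with NET-A and N placebo, and no spot was saturated. MPA replicate 2 was the dimmest array, with a 75th percentile of 165 intensity units against 515 to 992 on the other arrays of its experiment. The MPA experiment lay on slides 1 and 2 and the NET-A experiment on slides 3 to 5, read with different versions of the scanner software, so levels of the 2 experiments are given side by side without a test. All 14 endothelial and all 13 contractile smooth muscle marker genes were measured above background on enough arrays to be tested in both comparisons. Th, which sympathetic neurons express, was well above background on no array of the 16.

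Where a probe lies decides which part of a transcript it reads. The probes are 60 bases long, and the sequences of 5 of them are given, each from a different gene. Positions are those of the array files on mouse build mm9, and exon positions on that build were not used here. The 4 Gucy1a3 probes and the 3 Gucy1b3 probes all lie on the minus strand of chromosome 3. Gucy1a3 A_51_P199993, at chr3:81898619-81898678, begins at base 2324 of transcript NM_021896. Gucy1b3 A_52_P592835, at chr3:81838246-81838305 on the minus strand, begins at base 1901 of NM_017469. Ddah1 A_51_P110471, at chr3:145516152-145516211 on the plus strand, begins at base 678 of NM_026993. Nos3 A_51_P139651, at chr5:23889636-23889695 on the plus strand, begins at base 3466 of NM_008713. Pde5a A_52_P674593 begins at base 2225 of NM_153422, and its coordinates, chr3:122542539-122543926 on the plus strand, cover more than the probe's own length. The sequences are written 5′ to 3′.
Gucy1a3 A_51_P199993: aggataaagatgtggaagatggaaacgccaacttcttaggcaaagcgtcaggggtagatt
Gucy1b3 A_52_P592835: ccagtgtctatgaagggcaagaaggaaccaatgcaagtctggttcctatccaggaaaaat
Ddah1 A_51_P110471: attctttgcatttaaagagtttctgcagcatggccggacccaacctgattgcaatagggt
Nos3 A_51_P139651: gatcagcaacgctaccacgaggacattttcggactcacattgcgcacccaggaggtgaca
Pde5a A_52_P674593: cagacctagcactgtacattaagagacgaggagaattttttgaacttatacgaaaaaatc

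Of the synthases, Nos3 alone had a signal well above background on each of the 16 arrays. The probe A_51_P139651 gave log2 levels of 1.20, 0.69, 0.63 and 1.12 in MPA aortas and 1.01, 0.90, 1.21 and 0.83 in M placebo aortas. It gave 0.24, 1.28, 0.82 and 0.85 in NET-A aortas and 0.71, 0.87, 0.24 and 0.80 in N placebo aortas. Groups overlapped in both experiments, and the lowest NET-A and the lowest N placebo array read the same to 2 decimals. The change was -0.07 ± 0.18 with MPA (95% interval -0.49 to 0.34, adjusted p = 0.952, limma) and 0.14 ± 0.24 with NET-A (-0.40 to 0.69, adjusted p = 0.963). The array carries the Nos3 probe in 10 spots, and the SD of these spots within an array was 0.033 to 0.12 (median 0.069), below the SD of 0.17 to 0.42 between arrays of a group.

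Nos1 and Nos2 were near or below the limit of measurement. Nos1 A_51_P160198, at chr5:118402834-118402893, was well above background on none of the 16 arrays. Nos2 A_51_P163942, at chr11:78773160-78773219, was well above background on 2 NET-A arrays and 1 N placebo array and on none of the MPA experiment. Neither entered a test, and no fold is given for them.

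Ddah1 gave lower values in NET-A aortas with both of its probes. A_51_P307168, at chr3:145556803-145556862 and base 3308 of the transcript, gave -4.27, -3.79, -3.94 and -3.79 in NET-A aortas and -3.09, -3.33, -3.45 and -2.66 in N placebo aortas. All 4 NET-A arrays lay below all 4 N placebo arrays, and the probe was well above background on 3 NET-A arrays and on 4 N placebo arrays. The change was -0.81 ± 0.20 (95% interval -1.28 to -0.35), or a ratio of 0.57, with an adjusted p of 0.626 (limma). Non-overlapping groups with NET-A lower occurred in 2.58% of the 30976 probes tested. The probe nearer the start of the transcript, A_51_P110471, gave -3.63, -3.55, -3.75 and -3.58 in NET-A aortas and -2.91, -3.05, -3.68 and -2.57 in N placebo aortas. Here N placebo replicate 3 lay among the NET-A arrays and the change was -0.58 ± 0.22 (95% interval -1.08 to -0.07, adjusted p = 0.728, limma). Both probes gave a lower mean with NET-A on each of slides 3, 4 and 5, by -1.18, -0.61 and -0.73 for A_51_P307168 and by -0.72, -0.70 and -0.44 for A_51_P110471, although slides 3 and 4 held 1 pair of arrays each.

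In the MPA experiment Ddah1 was close to background. A_51_P110471 was well above background on 3 MPA and 3 M placebo arrays and gave a change of -0.43 ± 0.34 (adjusted p = 0.820, limma), and without the dim array MPA replicate 2 the change was -0.10. With normexp background correction its change was 0.79. A_51_P307168 was well above background on 1 MPA array and on no M placebo array, did not enter the test and has no fold. The test of the difference between the responses was open to A_51_P110471 alone and gave 0.14 ± 0.42 (adjusted p = 0.959), so that a lower value with NET-A alone is not shown.

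Ddah2 A_51_P341177, at chr17:35198877-35198936, gave a signal well above background throughout. It read 1.72, 1.72, 1.74 and 1.62 in MPA aortas and 2.01, 2.19, 1.69 and 1.48 in M placebo aortas, a change of -0.14 ± 0.18 (adjusted p = 0.886, limma). It gave 3.64, 3.21, 3.69 and 3.72 in NET-A aortas and 3.24, 3.57, 3.43 and 3.51 in N placebo aortas, a change of 0.13 ± 0.15 (adjusted p = 0.940). The MPA arrays lay inside the range of M placebo, and NET-A replicate 2 fell below all N placebo arrays while the other NET-A arrays lay above them.

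**Figure D1:**
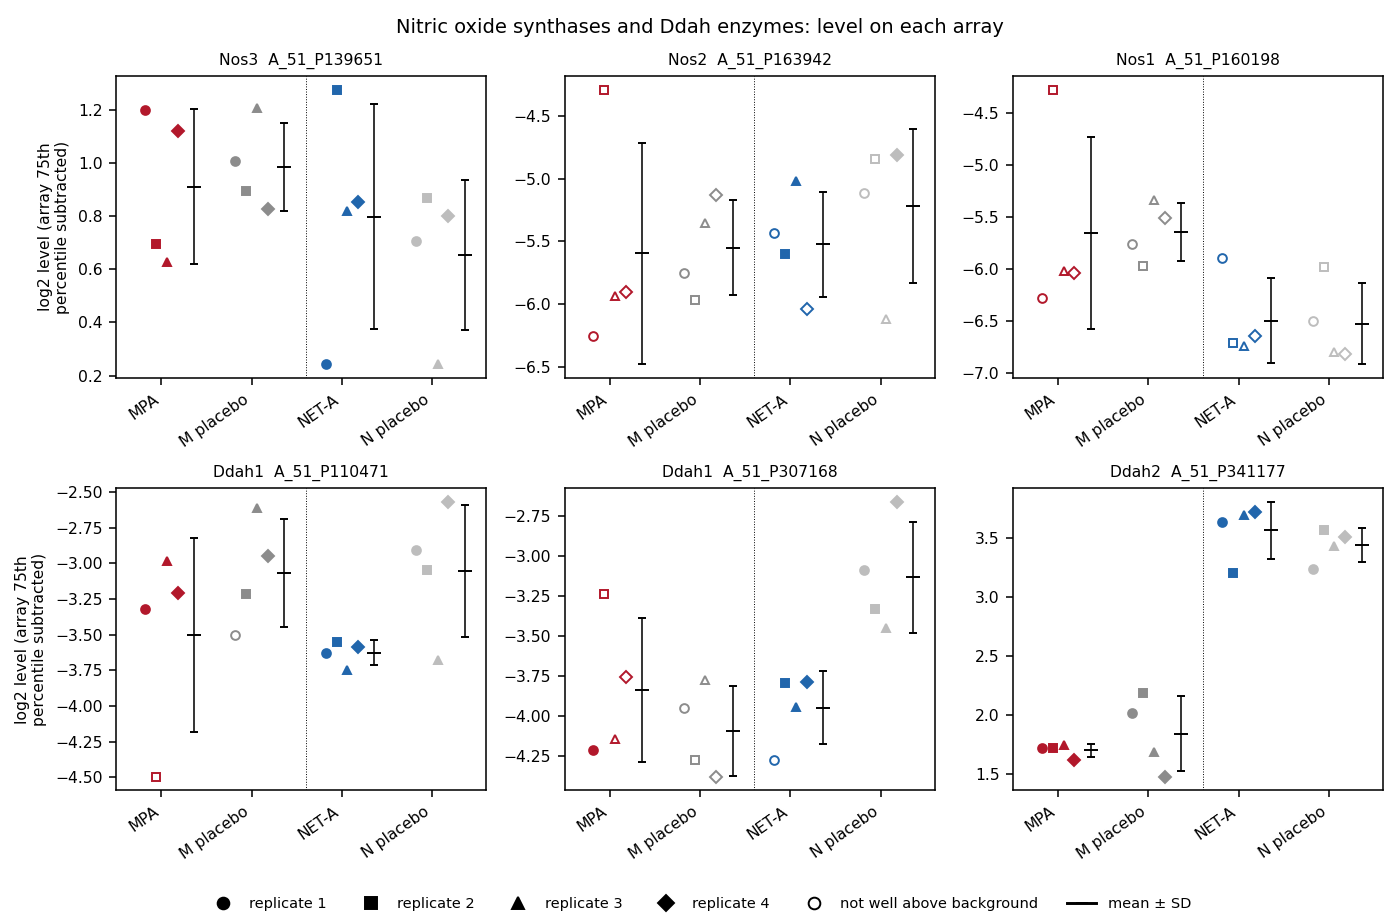
Log2 level (array 75th percentile subtracted) of each probe of the synthases and of Ddah1 and Ddah2 on each array, by group, with the vertical scale of each panel its own. Points are arrays, with replicates by shape and open points not well above background, and bars are mean ± SD. For Ddah1 A_51_P307168 the 4 NET-A arrays lie from -4.27 to -3.79, all below the N placebo arrays at -3.45 to -2.66.

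Gucy1a3 has 4 probes. In the direction of transcription A_52_P493965 comes first, at chr3:81911061-81911120 on the cDNA AK031305, then A_51_P199993, then A_51_P199987 at chr3:81898552-81898611 and base 2391 of NM_021896, and last A_52_P452540 at chr3:81896803-81896862 and base 4140. The middle pair is separated by 7 bases, and the last probe begins 1689 bases after the end of A_51_P199987.

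A_51_P199993 gave 1.83, 1.68, 2.10 and 1.58 in MPA aortas and 0.51, 0.65, 0.40 and 0.21 in M placebo aortas. The lowest MPA array stood well clear of the highest M placebo array. The change of 1.35 ± 0.17 (95% interval 0.97 to 1.74) is a ratio of 2.56, and its p of 1.94e-05 was the 2nd smallest of the 22326 probes tested, with an adjusted p of 0.217 (limma). Within slide 1 the change was 1.17 and within slide 2 it was 1.53. Leaving out any single array gave 1.25 to 1.43, and without MPA replicate 2, the dim array, it was 1.39.

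A_51_P199987 gave 3.54, 3.72, 4.03 and 3.41 in MPA aortas and 2.67, 2.95, 2.76 and 2.53 in M placebo aortas. The groups again did not overlap, with MPA replicate 3 highest at both probes. The change was 0.95 ± 0.18 (95% interval 0.54 to 1.35), a ratio of 1.93, with the 10th smallest p of all probes tested and an adjusted p of 0.632 (limma). On slide 1 alone the change was 0.82, and on slide 2 alone 1.07. A_52_P493965 gave -0.98, -0.81, -0.95 and -0.82 in MPA aortas and -0.90, -1.74, -1.28 and -1.83 in M placebo aortas. One M placebo array lay among the MPA arrays, and the change was 0.55 ± 0.22 (95% interval 0.06 to 1.03, adjusted p = 0.697, limma).

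A_52_P452540 gave 0.27, 1.08 and 1.38 in MPA replicates 2 to 4, the spot of replicate 1 being marked as an outlier and left out, and 1.57, 1.68, 0.72 and 0.76 in M placebo aortas. Its M placebo arrays split by slide, with those of slide 1 high and those of slide 2 low. The change of -0.27 ± 0.35 (95% interval -1.07 to 0.53, adjusted p = 0.889, limma) rested on 3 MPA arrays, was -1.35 within slide 1 and 0.49 within slide 2, and was 0.05 without the dim array MPA replicate 2. With the marked spot kept at its log2 level of 0.60, the change was -0.35.

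With MPA, 3 of the 13 pathway probes tested had an unadjusted p under 0.05, all of Gucy1a3 and all higher, against 6.88% of all 22326 probes (4.48% with MPA higher). In 2 of the 13, again both of Gucy1a3, the groups did not overlap, against 4.43% of all probes (2.93% with MPA higher). Probes of 1 gene share its transcript and are not independent of each other. Over the 13 probes the median change was 0.09, with 7 higher and 6 lower, beside a median of 0.02 over all probes, of which 53.1% were higher.

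In NET-A aortas the means of the Gucy1a3 probes lay close to those of N placebo. A_51_P199993 gave 2.61, 1.96, 2.35 and 2.49 in NET-A aortas and 2.03, 2.27, 2.92 and 2.11 in N placebo aortas, and the change was 0.02 ± 0.23 (95% interval -0.51 to 0.55, adjusted p = 0.997, limma). A_51_P199987 gave 3.40, 2.57, 3.16 and 3.12 in NET-A aortas and 2.91, 3.27, 3.59 and 2.70 in N placebo aortas, a change of -0.06 ± 0.24. The groups overlapped widely at both probes, and A_52_P493965 (-0.01 ± 0.36) and A_52_P452540 (0.15 ± 0.18) gave small mean changes too. The interval of A_52_P493965 was wide, at -0.83 to 0.80. The sign of the change differed between slides for A_51_P199993, at 0.58, 0.08 and -0.29 on slides 3, 4 and 5. For A_52_P493965 it differed as well, at 1.09, -0.03 and -0.56. At A_51_P199993 the M placebo group had the lowest mean, 0.44 ± 0.19 (SD). The means of the other groups were 1.80 ± 0.22 in MPA, 2.35 ± 0.28 in NET-A and 2.33 ± 0.40 in N placebo. Slides and software differ between the experiments, so a difference between the placebo groups cannot be told apart from these.

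The difference between the responses, MPA minus M placebo less NET-A minus N placebo, was 1.33 ± 0.28 for A_51_P199993 (95% interval 0.73 to 1.94, adjusted p = 0.259) and 1.00 ± 0.30 for A_51_P199987 (0.36 to 1.64, adjusted p = 0.396, limma over all 16 arrays). These were the only 2 of the 13 pathway probes tested with an unadjusted p under 0.05, against 8.6% of the 22152 probes tested (6.15% above 0). Neither passed the adjusted threshold. The other 11 probes gave -0.58 to 0.56.

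**Figure D2:**
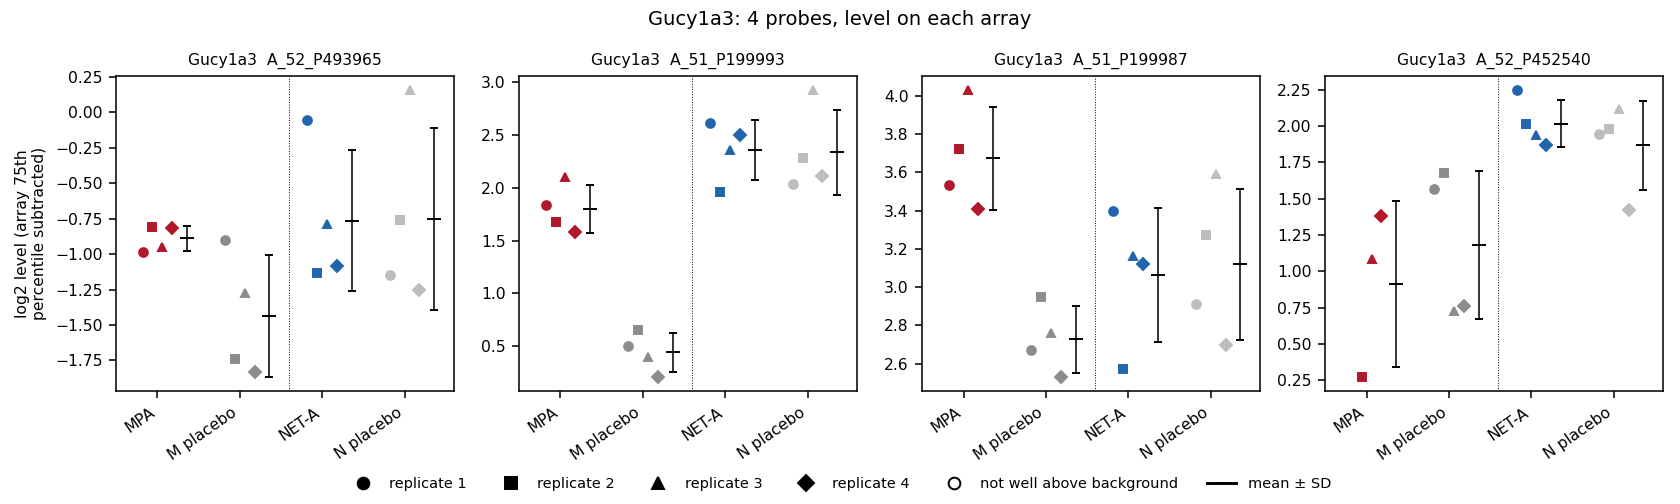
Log2 level (array 75th percentile subtracted) of the 4 Gucy1a3 probes on each array, in the order of transcription from left to right, by group. Points are arrays, with replicates by shape, bars are mean ± SD, and each panel has its own scale. At A_51_P199993 the MPA arrays lie from 1.58 to 2.10 and the M placebo arrays from 0.21 to 0.65, and at A_52_P452540 the same groups overlap.

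The unequal estimates along Gucy1a3 were examined within arrays, where array-wide scaling cancels. This comparison was chosen after the values were seen. The level of A_51_P199993 minus that of A_52_P452540 was 1.40, 1.01 and 0.20 in MPA replicates 2 to 4 and -1.06, -1.03, -0.32 and -0.55 in M placebo. All MPA arrays with a value lay above all M placebo arrays. With MPA replicate 1 left out, the dim array MPA replicate 2 was the only MPA array of slide 1. The means were 0.87 ± 0.61 (SD, n = 3) with MPA and -0.74 ± 0.36 (SD, n = 4) with M placebo, and the difference of 1.61 had an exact two-sided permutation p of 0.0286, the smallest that 35 splits of the arrays allow, and 0.114 after adjustment over 8 such comparisons. With the marked spot kept, the difference was 1.70. In NET-A aortas the same quantity was 0.34 ± 0.29 and in N placebo aortas 0.47 ± 0.33 (SD, n = 4 each), a difference of -0.13 (exact permutation p = 0.571). Between the adjacent pair, A_51_P199993 minus A_51_P199987, the difference with MPA was 0.41 (exact permutation p = 0.0286, 0.114 adjusted) and with NET-A 0.08 (exact permutation p = 0.486). The means of this pair were -1.88 in MPA and -2.28 in M placebo, but -0.71 in NET-A and -0.79 in N placebo. The 2 experiments thus lay further apart at these neighbouring probes than the groups within either. Array-wide scaling does not cancel such a gap between probes, and its cause was not tested. For A_51_P199987 minus A_52_P452540 the difference was 1.26 with MPA (exact permutation p = 0.0571, 0.152 adjusted) and -0.21 with NET-A (exact permutation p = 0.343). At that pair MPA replicate 4 (2.029) lay below M placebo replicate 3 (2.033), so the groups overlapped. For Gucy1b3 A_52_P592835 minus A_52_P179068 it was 0.40 with MPA (exact permutation p = 0.7) and 0.12 with NET-A (exact permutation p = 0.143). None of these differences passed after adjustment, so an unequal change is not shown. A within-array difference sets the changes at 2 probes against each other and does not tell which probe's target changed.

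**Figure D3:**
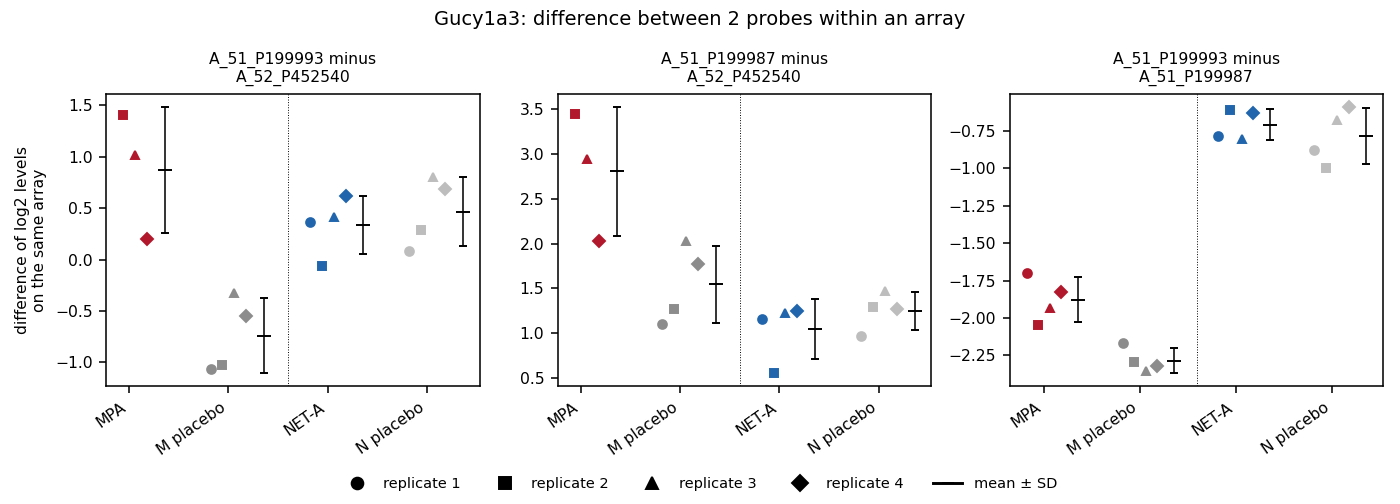
Difference between the log2 levels of 2 Gucy1a3 probes on the same array, by group, for 3 pairs of probes. Points are arrays, with replicates by shape, and bars are mean ± SD. In the left panel the MPA arrays lie from 0.20 to 1.40 and the M placebo arrays from -1.06 to -0.32, while NET-A and N placebo overlap.

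Gucy1b3, the beta subunit, lies next to Gucy1a3, with no protein-coding gene between them in the RefSeq gene table. Its 3 probes gave higher means in NET-A aortas. A_52_P592835 gave 0.73, 0.67, 0.91 and 0.42 in NET-A aortas and 0.22, 0.40, 0.42 and 0.11 in N placebo aortas. The lowest NET-A array and the highest N placebo array nearly touched without overlapping. The change was 0.40 ± 0.14 (95% interval 0.07 to 0.73), a ratio of 1.32, with an adjusted p of 0.700 (limma), and it was 0.51, 0.51 and 0.28 on slides 3, 4 and 5. Non-overlapping groups with NET-A higher occurred in 1.51% of all probes tested.

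A_51_P253303, at chr3:81836997-81837056, gave 2.35, 2.29, 2.38 and 1.72 in NET-A aortas and 1.84, 1.99, 1.73 and 1.48 in N placebo aortas, a change of 0.43 ± 0.19 (95% interval -0.0042 to 0.86, adjusted p = 0.756, limma). NET-A replicate 4 was the array that overlapped the placebo group. A_52_P179068, at chr3:81836142-81836201, gave 3.82, 3.73, 3.88 and 3.69 in NET-A aortas and 3.43, 3.68, 3.70 and 3.21 in N placebo aortas, a change of 0.28 ± 0.14 (95% interval -0.05 to 0.60, adjusted p = 0.791, limma). At this probe the lowest NET-A array fell just below the highest N placebo array.

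With MPA the 3 probes of Gucy1b3 gave wide intervals and mixed signs. A_52_P592835 gave -1.06, 0.43, -0.81 and -0.55 in MPA aortas and -0.39, -0.34 and -1.03 in M placebo replicates 1, 3 and 4, and the change of 0.09 ± 0.36 rested on 3 M placebo arrays because the spot of replicate 2 was marked as an outlier. A_51_P253303 gave -0.16 ± 0.25. A_52_P179068 gave -0.28 ± 0.39 on 3 MPA arrays. The spot left out, that of MPA replicate 1, read 4.02, above all other arrays of the experiment. The quantile-normalized series table values, which hold this spot, gave a change of 0.042. As with the last Gucy1a3 probe, the M placebo values of A_52_P179068 split by slide, at 3.88 and 3.75 on slide 1 and 2.63 and 2.83 on slide 2. The adjusted p of these 3 probes was 0.896 to 0.970 (limma). The difference between the responses was -0.30 to -0.58 for the 3 probes, with adjusted p of 0.648 to 0.880 (limma), so that a change of the beta subunit with NET-A and not with MPA is not shown.

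With NET-A, 3 of the 15 pathway probes tested had an unadjusted p under 0.05, against 6.6% of the 30976 probes tested (4.23% with NET-A lower and 2.37% with NET-A higher). They were the 2 probes of Ddah1, both lower, and A_52_P592835 of Gucy1b3, higher. Groups did not overlap in 2 of the 15, against 4.09% of all probes. Over the 15 probes the median change was 0.14, with 10 higher and 5 lower, beside a median of -0.03 over all probes, of which 44.3% were higher.

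Prkg1, the kinase that cyclic GMP activates, has 4 probes on chromosome 19, and 2 of them were well above background on all 16 arrays. A_51_P440210, at chr19:30643563-30643622, gave 0.80, 1.39, 1.16 and 1.02 in MPA aortas and 1.20, 1.08, 0.88 and 0.83 in M placebo aortas, a change of 0.09 ± 0.17 (95% interval -0.29 to 0.48, adjusted p = 0.926, limma). It gave 1.06, 1.08, 0.83 and 1.24 in NET-A aortas and 0.78, 1.12, 0.91 and 0.66 in N placebo aortas, a change of 0.19 ± 0.15 (-0.15 to 0.52, adjusted p = 0.878). Groups overlapped in both. A_52_P553069, at chr19:30639657-30639716, gave 0.35 ± 0.26 with MPA, 0.15 ± 0.18 with NET-A, and overlapping groups in both. Of the other 2, A_52_P564186 was well above background on none of the 16 arrays. A_52_P660707 was well above background on 1 MPA, no M placebo, 2 NET-A and 2 N placebo arrays, and gave -0.40 ± 0.52 with NET-A.

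Pde5a, which ends the signal by degrading cyclic GMP, gave 1.69, 2.23, 2.41 and 1.88 in MPA aortas and 1.66, 1.92, 1.81 and 1.65 in M placebo aortas. In NET-A aortas it gave 1.12, 0.41, 1.29 and 1.02, and in N placebo aortas 0.88, 0.38, 1.34 and 0.48. The lower MPA arrays lay within the M placebo range, and the NET-A and N placebo arrays were interleaved. The change was 0.29 ± 0.19 with MPA (95% interval -0.13 to 0.71, adjusted p = 0.799, limma) and 0.19 ± 0.27 with NET-A (-0.42 to 0.80, adjusted p = 0.954).

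**Figure D4:**
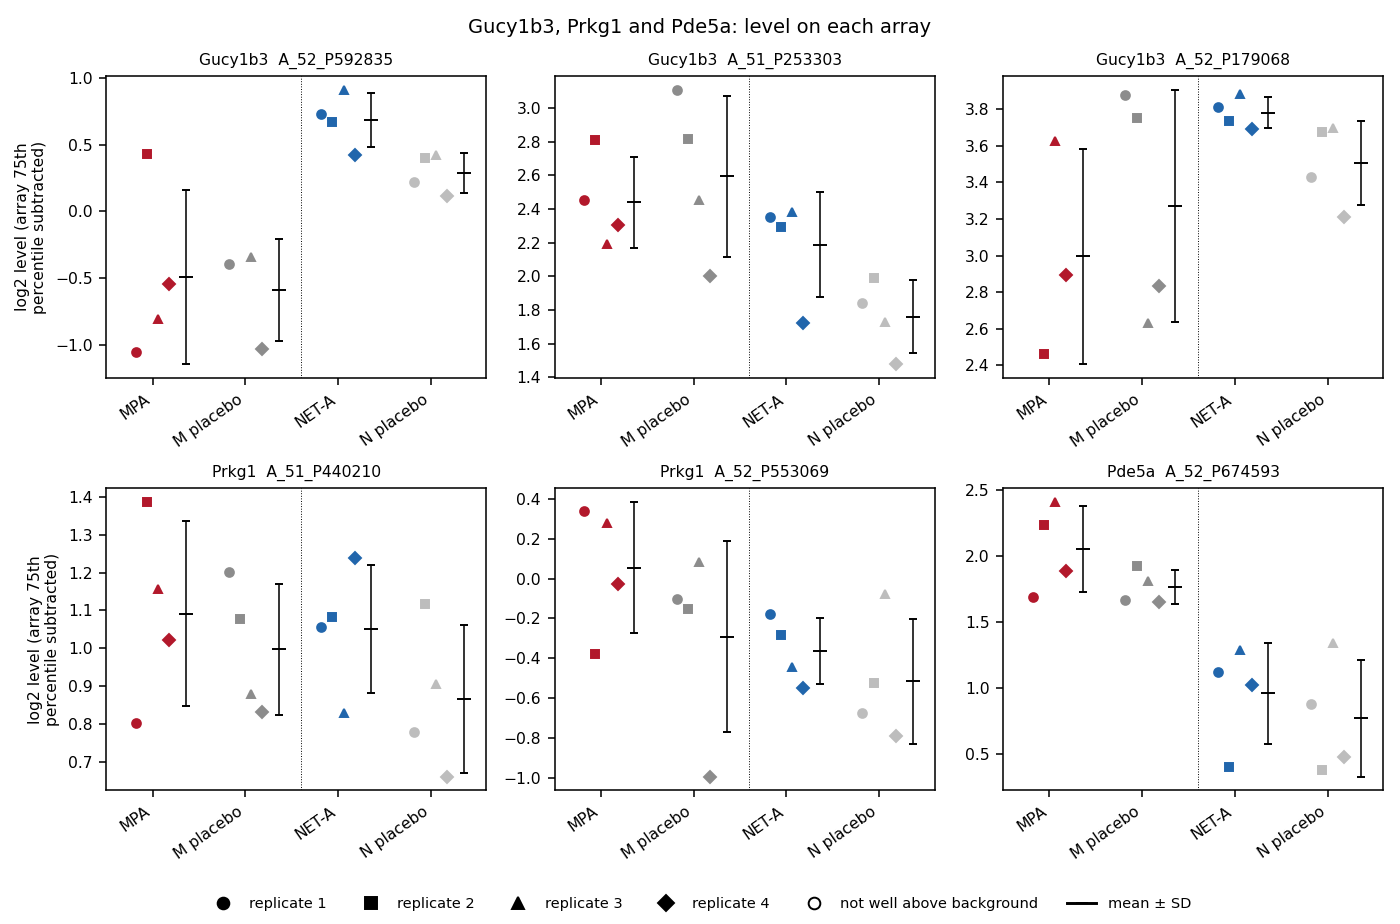
Log2 level (array 75th percentile subtracted) of the 3 Gucy1b3 probes, of the 2 Prkg1 probes measured on all arrays and of Pde5a on each array, by group. Points are arrays, with replicates by shape, bars are mean ± SD, and each panel has its own scale. NET-A arrays of Gucy1b3 A_52_P592835 lie from 0.42 to 0.91 and N placebo arrays from 0.11 to 0.42.

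**Figure D5:**
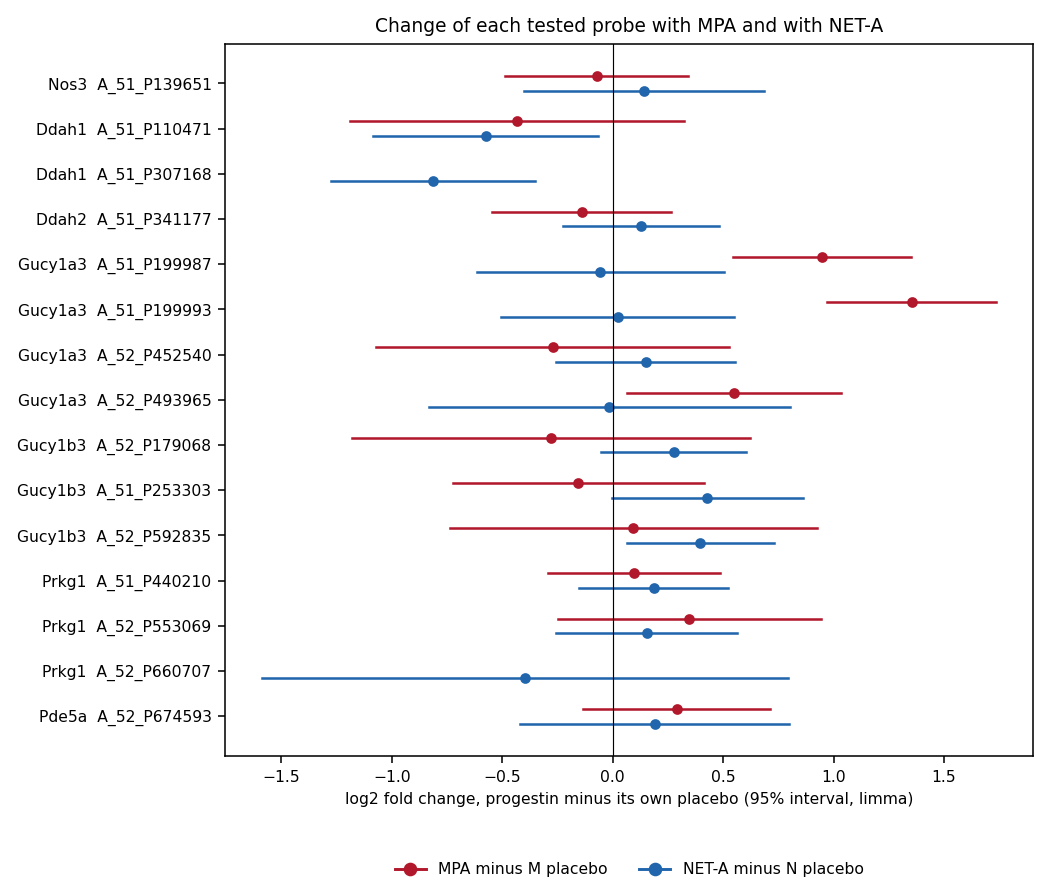
Change of each tested probe on the log2 scale, with its 95% interval from limma, for MPA minus M placebo and NET-A minus N placebo. Dots are the estimates and lines the intervals, and probes tested in 1 comparison have 1 line. Intervals clear of 0 belong to 3 Gucy1a3 probes with MPA and to Ddah1 and 1 Gucy1b3 probe with NET-A, and none of these passed the adjusted threshold.

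Marker genes of the cell types that the aorta samples could hold are given beside these values. In whole tissue, fewer cells of a type and less RNA per cell cannot be told apart. Guanylate cyclase is found in both smooth muscle and platelets. Contractile smooth muscle markers had median changes of 0.08 with MPA and 0.02 with NET-A, 13 tested in each, and endothelial markers 0.18 and 0.09, 14 tested in each. Platelet markers were higher with MPA in 15 of 15 tested (10 with an unadjusted p under 0.05 by limma, median 0.89), and their mean log2 level was -0.43 to 0.61 in MPA aortas and -1.03 to -0.50 in M placebo aortas. With NET-A they were higher in 15 of 16 (14 with an unadjusted p under 0.05, median 1.34), at -0.87 to 0.31 in NET-A aortas and -1.97 to -1.13 in N placebo aortas. Beside these and the following lists, 53.1% of all probes tested were higher with MPA and 44.3% with NET-A. Those higher with an unadjusted p under 0.05 (limma) were 4.48% and 2.37%. No gene of the marker lists passed the adjusted threshold.

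Macrophage markers were lower in 10 of 10 in both comparisons, by a median of -0.55 with MPA and -0.49 with NET-A. Neutrophil markers were higher in 6 of 6 tested with MPA (median 1.91) and in 6 of 9 with NET-A (median 0.88). Skeletal muscle markers were lower with MPA (5 of 5, median -2.26), with M placebo replicate 3 far above the other M placebo arrays, and higher with NET-A (11 of 11, median 1.15). Neuron and Schwann cell markers were higher in 2 and lower in 4 of 6 tested with MPA, and higher in 2 and lower in 5 of 7 with NET-A. The part of the platelet, macrophage, neutrophil and skeletal muscle transcripts in the pathway's values was not tested. A correlation of Gucy1a3 with the platelet marker mean is given below and does not measure that part.

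Nos3 varied with the endothelial markers from array to array within a group. Across 16 arrays, as deviations from group means, Nos3 correlated with the mean of the 14 endothelial markers (Pearson r = 0.863, Spearman rho = 0.835; permutation p = 3e-05 and 8e-05, adjusted over 4 relations 0.00012 and 0.00032). Without the 2 arrays farthest from the median r was 0.736, and with slide removed it was 0.87. Within the experiments r was 0.661 over the 8 arrays with MPA and M placebo (exact permutation p = 0.0807) and 0.941 over the 8 with NET-A and N placebo (exact permutation p = 7.44e-05). The 5 genes whose deviations were most like those of Nos3, among 11858 candidates, were Gpr4 (r = 0.936), Mfng (0.925), Bmp6 (0.923), Bcl6b (0.922) and Tie1 (0.921), of which Tie1, a receptor of endothelial cells, is also on the marker list.

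The other 3 relations did not pass the adjusted threshold. Each gene was taken by its brightest probe, A_51_P199987 for Gucy1a3, A_52_P179068 for Gucy1b3 and A_51_P440210 for Prkg1. Gucy1a3 and Gucy1b3 gave r = 0.433 and rho = 0.543 over 15 arrays (permutation p = 0.106 and 0.0395, adjusted 0.213 and 0.0791), with r = 0.437 without the 2 farthest arrays, 0.497 within the MPA experiment and 0.765 within the NET-A experiment. Gucy1b3 and Prkg1 gave r = 0.324 and rho = 0.368 over 15 arrays (permutation p = 0.237 and 0.177), 0.262 without the 2 farthest, 0.369 within the MPA experiment and 0.411 within the NET-A experiment. Gucy1a3 and the platelet marker mean gave r = 0.0611 and rho = 0.0441 over 16 arrays (permutation p = 0.82 and 0.874), and -0.249 without the 2 farthest. Within the MPA experiment that r was 0.711 (exact permutation p = 0.0446, adjusted 0.161), and within the NET-A experiment it was -0.268 (exact permutation p = 0.506). With slide removed r was 0.4 for Gucy1a3 and Gucy1b3 and 0.187 for Gucy1b3 and Prkg1. For Gucy1a3 and the platelet marker mean it was 0.133. The genes most like Gucy1a3 A_51_P199987 across 16 arrays were Cacna2d1 (r = 0.875), a calcium channel subunit, Scn2a1 (0.862), a sodium channel, 1110067D22Rik (0.847), Itgb3 (0.842), an integrin on the platelet list, and Rftn2 (0.833).

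A list of 52 further genes, covering synthase cofactors and regulators, arginine and methylarginine turnover, natriuretic peptides and their receptors, other phosphodiesterases and targets of the kinase, had 51 on the array under the names listed, each taken by its brightest probe. With MPA 37 were tested, 13 higher and 24 lower (median -0.08), and with NET-A 49, 28 higher and 21 lower (median 0.05). None passed the adjusted threshold. Unadjusted p under 0.05 (limma) was reached by 2 of 37 with MPA, by 1 of 49 with NET-A and by none of 37 for the difference between the responses, against 6.88%, 6.6% and 8.6% of all probes tested, so the list gave no larger share than all probes did. The 3 genes are described because they met that limit, not as changed genes.

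The 2 with MPA act on tetrahydrobiopterin, the cofactor the synthases need. Gch1, GTP cyclohydrolase 1, which starts its synthesis, gave -0.95, -0.98, -1.17 and -1.27 in MPA aortas and -0.80, -0.69, -0.81 and -0.35 in M placebo aortas. All MPA arrays lay below all M placebo arrays, as in 1.5% of all probes tested, and the change was -0.43 ± 0.16 (adjusted p = 0.697, limma). Gch1 gave -2.68, -2.58, -2.65 and -2.53 in NET-A aortas and -2.44, -2.73, -2.95 and -1.72 in N placebo aortas, which overlapped. Gchfr, the feedback regulator of that enzyme, gave -1.25, -0.93, -0.35 and -0.83 in MPA aortas and -1.72, -1.45, -0.99 and -1.40 in M placebo aortas. Its groups overlapped, and the change was 0.55 ± 0.23 (adjusted p = 0.700, limma). Gchfr gave -1.70, -0.44, -0.40 and -0.73 in NET-A aortas and -1.52, -1.88, -1.48 and -1.04 in N placebo aortas. There NET-A replicates 2 to 4 lay above all N placebo arrays, so a higher Gchfr value with MPA alone is not shown. Hsp90aa1, a chaperone that binds Nos3 and guanylate cyclase, gave 4.56, 4.70, 4.68 and 4.82 in NET-A aortas and 5.22, 4.85, 5.11 and 5.04 in N placebo aortas. All NET-A arrays lay below all N placebo arrays, as in 2.58% of all probes tested, and the change was -0.36 ± 0.13 (adjusted p = 0.686, limma). In the MPA experiment the Hsp90aa1 groups overlapped. There MPA replicates 2 and 4 (6.00 and 6.19) lay below all M placebo arrays. MPA replicates 1 and 3 (7.08 and 6.72) lay within the M placebo range, so a lower Hsp90aa1 value with NET-A alone is not shown.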

How the data were processed

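Cy3-labelled RNA of 16 aorta samples was read on one-colour Agilent arrays of 45018 spots, 43379 of them not controls. Intensity per spot came, per the file headers, from Agilent Feature Extraction (version 10.7.1.1 for the MPA arrays and their placebo, 11.0.1.1 for the NET-A arrays and theirs) with background subtracted. Positions are on build mm9. The deposited log2 series table matched the arrays (r = 1 for each) when rebuilt as quantile-normalized log2 intensity centred on each probe's median within an experiment. Its column medians ran from -0.027 to 0.016, and its scale, centring and direction are inferred, not stated in the sources used here.

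Spots marked as outliers were left out (0.515%), log2 of the processed intensity was scaled by the array's 75th percentile, and spots of a probe were averaged. NET-A files hold no gene names, so names came from the MPA files through the probe. A probe well above background on at least 4 of 8 arrays of an experiment was tested with limma 3.58.1 in R 4.3.3 (lmFit, eBayes, two-sided tests, Benjamini-Hochberg adjustment, threshold 0.05), 22326 probes for MPA, 30976 for NET-A and 22152 for the difference between the responses. The scripts were tested on simulated data. The number of arrays limits the precision. Each placebo group was set against the progestin that shares its slides and initial. Named genes were all probes of the members, wider-list genes with an unadjusted p under 0.05, and the 5 genes most like Gucy1a3 and Nos3. The wider list and the endothelial, contractile smooth muscle, platelet, macrophage, neutrophil, skeletal muscle, and neuron and Schwann cell lists, and the members themselves, were chosen with earlier results of these data known. Alternatives covered scaling, background correction, filters, array weights, slide and replicate blocks and each array left out.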

Additional observations from a re-analysis of the deposited data

Results flagged for a closer look

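In 4 of 69 groups of 4 arrays examined for the 18 probes, 1 array stood apart from the other 3 by Dixon's criterion, a rate that chance gives in about 1 of 20 groups. Ddah2 A_51_P341177 read 3.21 in NET-A replicate 2 and 3.64 to 3.72 in the other NET-A arrays. Gucy1b3 A_51_P253303 read 1.72 in NET-A replicate 4 and 2.29 to 2.38 in the others. Nos1 A_51_P160198 read -4.28 in MPA replicate 2, the dimmest array, and -6.28 to -6.02 in the other MPA arrays, and it read -5.89 in NET-A replicate 1 and -6.75 to -6.64 in the other NET-A arrays. Both Nos1 values were not well above background.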

How the results depend on the processing

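No probe of the pathway passed the adjusted threshold in any of 21 alternative fits for MPA, 20 for NET-A and 26 for the difference between the responses, where its smallest adjusted p was 0.0541, 0.359 and 0.0725 (limma). Gucy1a3 A_51_P199993 with MPA had its adjusted p of 0.0541 when all 16 arrays shared 1 fit. Its change ran from 1.09 to 1.53 over the alternatives, and that of A_51_P199987 from 0.66 to 1.07. Over all probes, the count of calls moved from 0 to 1 for MPA with a slide block (S100a8), from 0 to 1 for the difference with the replicate block (Sall4), and over 0 to 2 for the difference when 1 array was left out, the 2 calls (Camsap1l1 and Fam107a) arising without NET-A replicate 1. The cause was not tested.

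Signs turned for some small changes. Quantile normalization gave -0.011 (NET-A, A_51_P199993), 0.013 (NET-A, A_52_P493965) and -0.15 (difference, Ddah1 A_51_P110471), and the series table -0.0056, 0.016 and -0.16 for the same probes and 0.042 for Gucy1b3 A_52_P179068 with MPA. Normexp gave 0.79 for Ddah1 A_51_P110471 and -0.091 for Prkg1 A_51_P440210 with MPA, 0.13 for A_51_P199987 with NET-A and -0.14 for the difference at Pde5a. It moved the median of all probes to 0.12, -0.18 and 0.17 for MPA, NET-A and the difference, and the probes with an unadjusted p under 0.05 to 7188, 775 and 7146, beside 1537, 2044 and 1906. Array weights gave -0.049 (MPA, A_52_P592835), 0.070 (NET-A, A_51_P199987), 0.074 (NET-A, A_52_P493965) and -0.044 (difference, Pde5a). Within slide 1 Prkg1 A_51_P440210 gave -0.044. Within slide 2 Ddah2 gave 0.098, A_52_P452540 0.49, A_52_P179068 0.53 and A_51_P253303 0.020. Within slide 5 Ddah2 gave -0.011, A_51_P199993 -0.29 and Pde5a -0.20. The correlation of Gucy1a3 with platelet markers was -0.268 within the NET-A experiment.

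Leaving out 1 array turned signs within these ranges: with MPA A_52_P452540 from -0.50 to 0.049, A_51_P253303 from -0.35 to 0.016, A_52_P592835 from -0.22 to 0.28, Nos3 from -0.17 to 0.021 and Prkg1 A_51_P440210 from -0.0033 to 0.19. With NET-A they were A_51_P199987 from -0.20 to 0.11, A_51_P199993 from -0.079 to 0.22, A_52_P493965 from -0.25 to 0.29, Nos3 from -0.016 to 0.33 and Prkg1 A_52_P660707 from -0.83 to 0.021. For the difference they were Ddah1 A_51_P110471 from -0.030 to 0.47, Pde5a from -0.090 to 0.23, Prkg1 A_51_P440210 from -0.19 to 0.0055 and Prkg1 A_52_P553069 from -0.041 to 0.34.

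Replicate numbers did not pair the samples. Same-numbered arrays correlated in their deviations by 0.214, -0.204, -0.0587 and 0.0809 in the MPA experiment and by 0.152, -0.307, -0.246 and 0.306 in the NET-A experiment. NET-A and N placebo arrays of the same slide correlated by 0.11 to 0.445, and those of different slides by -0.327 to 0.121. In the MPA experiment these ranges were -0.204 to 0.236 and -0.237 to 0.187. The main fits held no slide term. With the replicate block the counts of calls were 0 for MPA and 0 for NET-A, and Gucy1b3 A_52_P592835 gave -0.22 with MPA. Normexp in the NET-A experiment used the median spot signal, since those files hold no mean signal. Signal over background limits Nos1, Nos2, Ddah1 with MPA and 2 of the 4 Prkg1 probes. Ddah1 was dim with NET-A too. A_51_P110471 had a mean of -3.63 in NET-A aortas and -3.50 in MPA aortas. A_51_P307168 had means of -3.95 and -3.84 and was not well above background in NET-A replicate 1.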
